A study of Mus musculus with 6 samples.

Results

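The versicanases are secreted proteases of the ADAMTS family that cut versican, a large chondroitin sulfate proteoglycan of embryonic connective tissue. This account covers 6 protease genes of that group, Adamts20, Adamts9, Adamts1, Adamts4, Adamts5 and Adamts15, together with their substrate gene Vcan. All 7 genes were measured, by 20 of the 45037 probe sets and as 7 of the 18193 singly named genes on the array. A probe set counted as a member if the platform annotation listed a single one of these symbols for it. The group was chosen by the value of Adamts20, which stood out between Hox6 null and control pancreas in an earlier look at these same arrays, and the other genes were added for their known function. The differences between the genotypes given here for the 7 genes are therefore descriptions, with no test.

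Whole pancreas was dissected from Hox6 null and from control mouse embryos at E12.5, with 3 arrays in each group. The labels give the strain of all samples as Bl6 and the genotype of the controls as wild type. Hox6 stands for the paralogous homeobox genes of group 6, and the nature of the null alleles is not described. The arrays are labelled as biological replicates, with no mention of embryos per sample, sex or litter. P-values therefore measure the spread between these samples.

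Versican binds hyaluronan and forms a loose, water-rich matrix around mesenchymal cells and along vessels. Versicanases cut it within its sugar-carrying region and so thin this matrix during morphogenesis, for example between the digits and in the closing palate of the mouse. Adamts20 and Adamts9 encode close relatives that carry a long row of thrombospondin repeats and are homologous to worm GON-1. Mice lacking Adamts20 have the belted coat, in which pigment cell precursors fail to fill the trunk skin. The products of Adamts1, Adamts4, Adamts5 and Adamts15 are shorter and also act on aggrecan, the related proteoglycan of cartilage.

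Of the 7 genes, 4 (Adamts20, Vcan, Adamts1 and Adamts9) were matched by symbol to a RefSeq promoter window (build GRCm38.p6), and Adamts4, Adamts5 and Adamts15 were not. The 250 bases before the transcript start are printed for Adamts20 and Vcan, which both read lower in Hox6 null pancreas, and for Adamts1, which read higher on average. Capitals mark a homeodomain core (TAAT or ATTA) or a CCAAT box (CCAAT or ATTGG), searched on both strands.
Adamts20, chr15:94404351-94404600, minus strand: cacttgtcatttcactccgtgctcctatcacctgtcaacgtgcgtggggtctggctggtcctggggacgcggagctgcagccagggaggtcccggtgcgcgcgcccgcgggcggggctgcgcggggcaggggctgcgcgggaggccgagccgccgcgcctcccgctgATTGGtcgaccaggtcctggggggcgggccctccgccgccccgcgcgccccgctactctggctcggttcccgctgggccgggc
Vcan, chr13:89742513-89742762, minus strand: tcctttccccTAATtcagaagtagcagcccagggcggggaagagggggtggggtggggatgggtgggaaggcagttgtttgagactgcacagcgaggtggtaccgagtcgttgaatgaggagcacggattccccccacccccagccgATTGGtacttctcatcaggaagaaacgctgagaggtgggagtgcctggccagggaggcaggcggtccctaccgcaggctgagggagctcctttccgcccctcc
Adamts1, chr16:85803114-85803363, minus strand: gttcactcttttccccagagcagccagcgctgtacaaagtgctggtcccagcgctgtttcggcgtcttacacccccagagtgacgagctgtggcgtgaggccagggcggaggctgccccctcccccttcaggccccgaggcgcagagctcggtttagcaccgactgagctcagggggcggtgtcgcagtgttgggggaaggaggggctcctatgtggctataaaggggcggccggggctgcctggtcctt
The Adamts20 and Vcan windows each hold 1 CCAAT box, and the Adamts1 window holds 0. A CCAAT box lies in 33.8% of all 32851 windows of this length. The Vcan window also holds 1 homeodomain core, a sequence present in 54.9% of all windows, and the other 2 windows hold 0. The composite sequence TGATNNAT (or ATNNATCA), used by Hox proteins with Pbx partners, was found 0 times in any of the 3 and occurs in 7.68% of all windows. All 3 windows were rich in G and C, at 76.4% for Adamts20, 62.4% for Vcan and 65.6% for Adamts1, against a median of 52.4% over all windows. The RefSeq gene record reaches 27724 bases further upstream than this start for Adamts20 and 515 bases further for Vcan, so other starts exist. The Adamts9 window, not printed, held 0 CCAAT boxes, 0 homeodomain cores and 0 composite sequences, with 71.2% G and C. Such letters describe the sequence and say nothing about binding. Adamts1 and Adamts5 are neighbouring protein-coding genes on chromosome 16.

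Values are log2 expression levels after RMA, a normalization that puts all arrays on a common scale. A level depends on the probe set as well as on the amount of RNA, so that levels are used between probe sets only to say which were dim. A linear model with genotype as its single term was fitted over all 18193 genes with limma, 1 probe set per gene (the one with the highest mean), and genes with a Benjamini-Hochberg adjusted p under 0.05 were called. It called 13 genes, 0.0715% of those tested, of which 12 (0.066%) were lower and 1 (0.0055%) was higher in Hox6 null pancreas. The same fit over probe sets called 1 (0.00222%). The count of genes was 1536 without null 3 (805 higher, 731 lower), 2 without control 1 and 0 without any other single array. A fit that included the epithelium level described next called 33 genes, 24 higher and 9 lower. Null arrays 1 and 2 stood apart from null array 3 in their levels of epithelial marker RNA. The mean level of 14 epithelium markers, such as the adhesion gene Epcam, was 9.32, 9.25 and 8.42 in null arrays 1, 2 and 3. In control arrays it was 8.39 to 8.48, and 13 of the 14 markers were higher on average in the null group. Correlations between arrays were 0.980 to 0.987 within the null group and 0.994 to 0.995 within the control group. Of the targeted genes, Hoxb6 differed by -0.42 and the 3 probe sets of Hoxc6 by 0.13 to 0.73, and none was called. Hoxa6 had no probe set annotated to it alone and was not read. All 7 measured pancreas markers, Pdx1 and Ptf1a among them, were read in every array and were higher on average in the null group. Mean levels over the list were 8.06 to 9.20 in null and 7.77 to 8.07 in control arrays.

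Adamts20 was lower in all 3 Hox6 null arrays. Its single probe set (1456901_at) read 3.77, 4.34 and 3.97 in null arrays 1, 2 and 3, against 5.46, 5.88 and 5.84 in control arrays 1, 2 and 3. The groups lay more than 1 log2 unit apart at their closest. Mean levels were 4.02 ± 0.29 in null and 5.73 ± 0.23 in control pancreas (SD, n = 3 each), a difference of -1.70 ± 0.18 (moderated SE; 95% interval -2.13 to -1.28). This is 3.26-fold lower in the null group on the deposited scale. The probe set was a dim one: its readings ranked at the 17.9th, 26.3rd and 22.3rd percentile of all probe sets on the null arrays and at the 43.0th, 48.3rd and 48.3rd on the control arrays. Readings at the lower end carry background, which compresses differences, and no detection calls were used here. Of the 18193 genes, 19 had a more negative difference. Adamts20 was picked for its value in this contrast, which can inflate the size, so the interval and the rank test nothing.

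**Figure D1:**
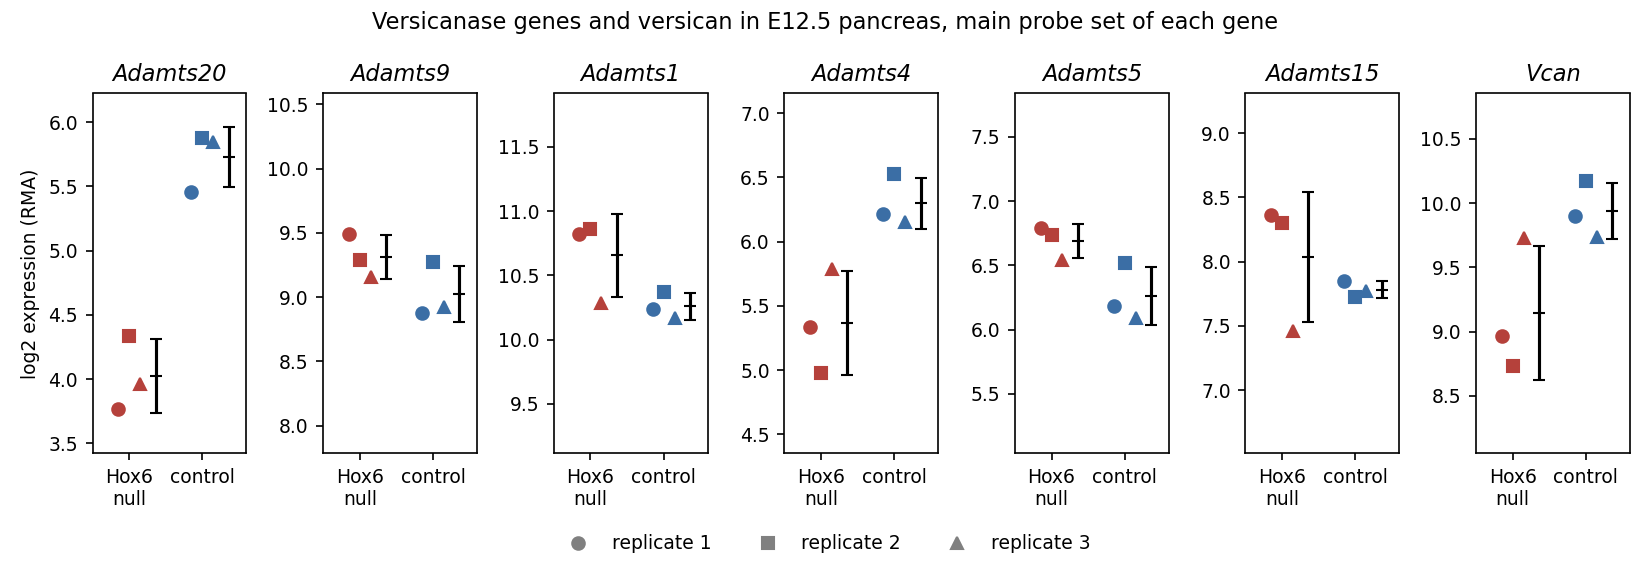
Log2 expression of the main probe set of each gene (y axis, RMA scale, each panel spanning the same range around its own centre) in Hox6 null arrays (left, red) and control arrays (right, blue). Symbols are replicates and bars are mean ± SD of 3 arrays; Adamts20 shows the widest gap, -1.70, and null replicate 3 lies at the control side of the null group for Vcan, Adamts4 and Adamts1.

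Adamts9, the nearest relative of Adamts20 in the family, did not share its low reading. Its main probe set stood at 9.49, 9.29 and 9.15 in null arrays against 8.88, 9.27 and 8.92 in control arrays. The groups overlapped, because control 2 lay above null 3. The difference was 0.29 ± 0.15 (SE), and the other 2 probe sets gave 0.21 ± 0.22 and 0.59 ± 0.22, also with overlapping arrays. In null array 3 the main probe set was 0.13 above the control mean, and in null array 1 it was 0.46 above it.

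Adamts1, a protease known from ovulation and heart development, read higher on average in the null group. Its levels were 10.82, 10.86 and 10.28 in null arrays, against 10.23, 10.37 and 10.17 in control arrays. Null arrays 1 and 2 were above every control, while null 3 lay among the controls, so that the groups overlapped (difference 0.40 ± 0.17, SE). Adamts15, which is expressed in developing muscle and cartilage of the mouse, split the null group more widely. It read 8.36, 8.30 and 7.46 in null arrays, against 7.85, 7.72 and 7.77 in control arrays. Null 3 was below all controls and the other null arrays were above them, and the mean difference of 0.26 ± 0.24 (SE) describes neither. The SD was 0.51 in the null group and 0.066 in the control group. Without null 3 the Adamts15 difference was 0.548, without null 1 it was 0.096 and without null 2 it was 0.127.

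Adamts4, an aggrecan-cleaving protease, was lower in every null array. The main probe set read 5.34, 4.98 and 5.78 in null arrays, against 6.21, 6.53 and 6.15 in control arrays. The groups did not overlap, and null 3 was nearest to the controls. The difference was -0.93 ± 0.21 (SE), which is 1.90-fold lower. The other Adamts4 probe set read 5.13, 5.004 and 5.17 in null arrays, against 5.77, 5.80 and 5.64 in control arrays. It differed by -0.63 ± 0.11 (SE), with less spread among the null arrays than the main one.

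The 4 probe sets of Adamts5, another aggrecanase with a part in limb and heart valve remodelling in the mouse, gave unequal differences. The main one read 6.79, 6.74 and 6.54 in null arrays, against 6.18, 6.52 and 6.09 in control arrays, a difference of 0.43 ± 0.14 (SE) without overlap. The dimmest one was also higher without overlap, at 4.06, 4.02 and 3.78 in null and 3.53, 3.28 and 3.40 in control arrays. The remaining probe sets differed by -0.045 and -0.073, with overlapping arrays. Their SE were 0.23 and 0.21, so that they resolved no direction.

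Vcan, the substrate, was lower in the null group on each of its 4 brighter probe sets. The main one read 8.97, 8.73 and 9.73 in null arrays, against 9.90, 10.17 and 9.74 in control arrays. The groups were barely separated, since null 3 lay just under control 3, while null 1 and null 2 were clearly lower. The difference of this probe set was -0.79 ± 0.26 (SE), or 1.73-fold. A wider gap appeared on 1427256_at, with 7.77, 7.72 and 8.65 in null arrays against 9.22, 9.38 and 9.01 in control arrays (-1.16 ± 0.25, SE). The most negative value was that of 1447887_x_at, which read 7.503, 6.997 and 8.41 in null arrays against 8.97, 9.11 and 8.81 in control arrays (-1.33 ± 0.32, SE). The fourth, 1421694_a_at, gave -1.02 ± 0.28 (SE). The other 4 probe sets of Vcan were dim, with control means of 2.40 to 4.23, overlapping arrays and differences of -0.36 to 0.10. Versican occurs in splice forms, and the probe sets were not assigned to them here.

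Among the 20 probe sets 10 were lower and 10 higher, and in 9 the null and control arrays did not overlap. Over all probe sets 22% did not overlap. By gene, 4 of 7 main probe sets did not overlap, 3 lower (Adamts20, Adamts4 and Vcan) and 1 higher (Adamts5), beside 23.8% of all genes. Since Adamts20 was picked in this contrast, nothing is read from these counts. The Adamts20 difference lay between -1.86 and -1.53 in the 15 alternative fits that gave it.

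**Figure D2:**
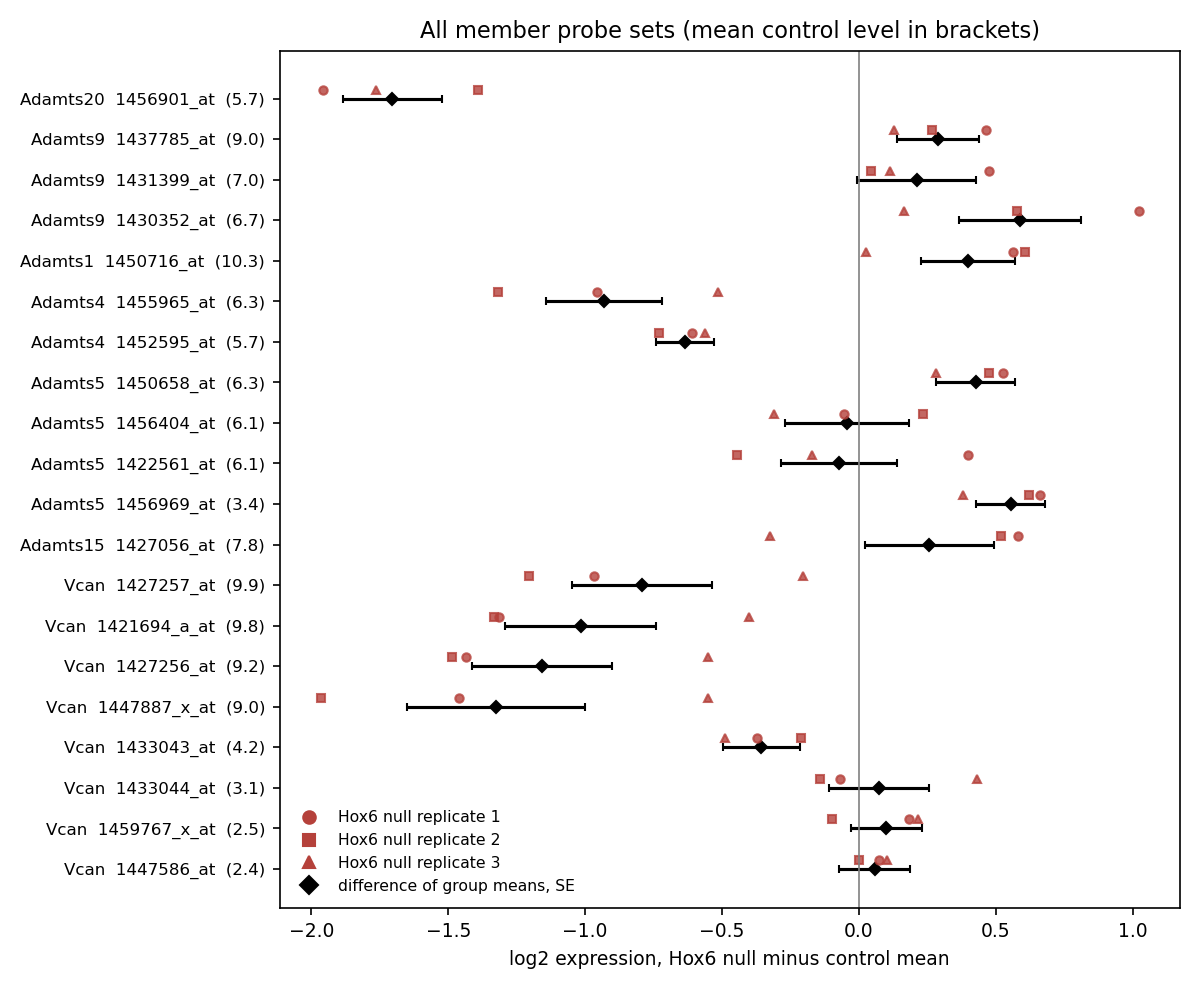
Difference in log2 expression between Hox6 null and control (x axis) for all 20 probe sets, with the mean control level in brackets. Black diamonds are differences of group means with moderated SE and red symbols are single null arrays relative to the control mean; the 4 brighter Vcan probe sets lie between -0.79 and -1.33, and Adamts20 lies at -1.70.

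The null arrays differed among themselves. Relative to the control mean, Adamts20 was at -1.96, -1.39 and -1.76 in null arrays 1, 2 and 3. Null 3 thus lay between the other null arrays. For Vcan the same values were -0.97, -1.20 and -0.20, for Adamts4 -0.96, -1.32 and -0.51, and for Adamts1 0.56, 0.61 and 0.026. For Adamts9 they were 0.46, 0.27 and 0.13, for Adamts5 0.53, 0.47 and 0.28, and for Adamts15 0.58, 0.52 and -0.33. On the main probe set of each of the 6 genes other than Adamts20, null 3 was in size the null array closest to the control mean. It was also the null array with a control-like epithelium level. Other probe sets varied: Adamts4 1452595_at stood at -0.61, -0.73 and -0.56, and on Adamts9 1431399_at null 2 was closest. Nor was Adamts20 alone. The mesenchyme marker Twist1 read 5.91, 6.04 and 5.86 in null arrays against 6.90 to 7.595 in control arrays, while Tcf21 was near the controls in null 3. This was not counted over all genes.

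With the mean epithelium level as a covariate, the Adamts20 difference was -1.71 ± 0.26 (SE), beside -1.70 without it. The Vcan difference came to -0.22 ± 0.20 (SE) and that of Adamts4 to -0.525 ± 0.21 (SE). Adamts1 came to 0.045 ± 0.14 (SE) and Adamts9 to 0.145 ± 0.19 (SE). Adamts5 stood at 0.30 ± 0.19 (SE). Adamts15 turned to -0.32 ± 0.12 (SE). The covariate was chosen with the split of the null arrays known, and its value separates null 1 and null 2 from the other 4 arrays. The fitted differences therefore rest largely on null 3 against the controls. For Adamts20 and Vcan, null 3 alone stood at -1.76 and -0.20 relative to the control mean. The covariate values are thus no separate result beside those of null 3. Whether Adamts20 differs from the other genes in its response to the covariate by more than the error was not tested.

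**Figure D3:**
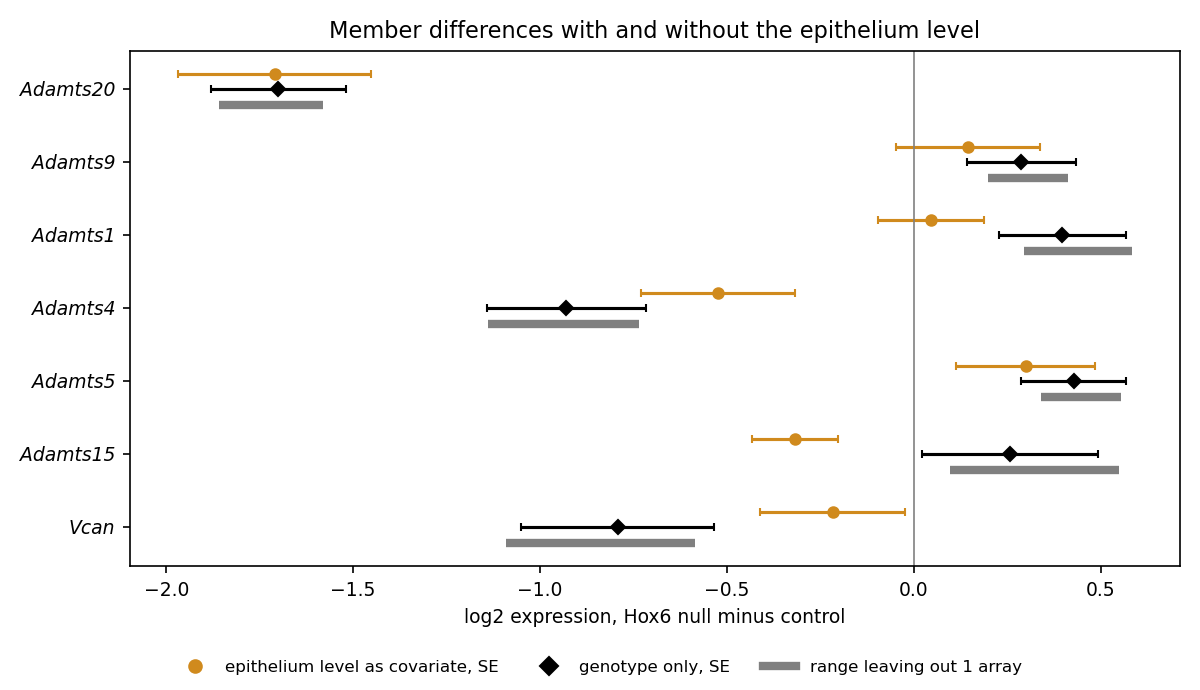
Difference in log2 expression, Hox6 null minus control (x axis), for the main probe set of each gene, with genotype alone (black) and with the epithelium level as covariate (orange), both with SE. Grey bars span the values when 1 array was left out. With the covariate Adamts20 lies near -1.7, Vcan at -0.22 and Adamts15 at -0.32. Those values rest largely on null replicate 3.

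Levels of other cell type markers also differed between the groups. Mesenchyme markers, 15 of 16 lower, had a mean level of 8.78 to 9.02 in null and 9.36 to 9.48 in control arrays. Mesothelium markers, 7 of 8 lower, stood at 6.11 to 6.57 in null and 7.06 to 7.28 in control arrays. Endothelium markers, 10 of 10 lower, stood at 7.78 to 8.15 in null and 8.47 to 8.59 in control arrays, and macrophage markers, 10 of 10 lower, at 7.27 to 7.73 in null and 8.24 to 8.32 in control arrays. Smooth muscle markers, 5 of 6 lower, stood at 6.10 to 6.33 in null and 6.445 to 6.79 in control arrays. Neural crest and glia markers, 6 of 6 higher, stood at 6.83 to 6.90 in null and 6.305 to 6.43 in control arrays. Of these 6, 2 had no overlap between the groups, beside 23.8% of all genes. Their patterns were unlike: in null arrays 1, 2 and 3 Erbb3 read 9.48, 9.40 and 8.34, and Tubb3 read 6.49, 6.62 and 8.17. Skeletal muscle and cartilage markers, 7 of 8 higher, stood at 5.35 to 5.62 in null and 5.14 to 5.365 in control arrays. In whole tissue, fewer cells of a type and less RNA per cell cannot be told apart, and the part of these markers in the Adamts20, Adamts4 and Vcan values was not tested. Pigment cell precursor markers, a lineage that depends on Adamts20 in the skin, averaged 4.97 to 5.05 in null and 4.98 to 5.09 in control arrays, with 4 of 8 lower. Of this list, the receptor genes Ednrb and Kit, which other cell types also express, differed by -0.45 and -0.37 without overlap between the groups. Kit had the same sign in 1 of 2 probe sets. Over all genes 23.8% did not overlap, beside 2 of 8 here. Mitf differed by -0.62 with overlapping arrays and the same sign in 1 of 2 probe sets. The melanin pathway genes gave means of 6.18 in null and 5.50 in control arrays for Dct, with overlap, and of 2.55 in null and 2.60 in control arrays for Tyr, near the bottom of the scale. Tyrp1, Pmel and Mlana were higher on average, by 0.27, 0.20 and 0.11, each with overlapping arrays.

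Around the 7 genes, 88 other genes of the versican pathway and of related protease families were measured, out of 96 listed. None passed the test over all genes (limma, Benjamini-Hochberg), against 0.0715% of all genes. At an unadjusted p under 0.05, 5 were higher and 21 lower, which is 29.5% of them beside 17% of all genes. By direction, 23.9% were lower and 5.68% higher, beside 8.24% and 8.73% of all genes. The median difference of the 88 was -0.071 and that of all genes was 0.033. With the epithelium covariate the count at an unadjusted p under 0.05 was 14, of which 12 were lower, when 11.2% of all genes were under it. Without control 3 it was 17, of which 15 were lower, when 9.85% of all genes were under it, and without null 3 it was 32, of which 25 were lower, when 29% were.

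Other ADAMTS proteases showed no common direction: 5 of 9 were positive, with a median of 0.030 and 0 past the adjusted threshold. Adamts12, which cuts cartilage oligomeric matrix protein, read 5.05, 4.62 and 5.80 in null arrays against 6.42, 6.27 and 6.05 in control arrays (-1.09 ± 0.28, SE, adjusted p = 0.178, limma). Adamts3, which processes procollagen and Vegfc precursors, differed by -0.75 ± 0.24 (adjusted p = 0.220, limma), with its other probe set of opposite sign. These 2 were the members of the list with an unadjusted p under 0.05, 22.2% of it beside 17% of all genes. Adamts6 and Adamts16 stood at 0.20 and 0.21. Of the 7 ADAMTS-like proteins, which lack a protease domain, 5 were positive (median 0.043) and 0 had an unadjusted p under 0.05. The most negative was Thsd4, at -0.73 with overlapping arrays, and Adamtsl3 (0.24), Papln (0.16) and Adamtsl2 (0.068) were higher on average.

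Relatives of versican and the hyaluronan matrix were evenly divided, with 8 of 16 positive, a median of 0.0055 and 0 past the adjusted threshold. Acan, which encodes aggrecan, went opposite to Vcan, with 8.12, 8.27 and 7.01 in null arrays against 6.997, 6.79 and 6.50 in control arrays. Its difference was 1.04 ± 0.33 (SE, adjusted p = 0.220, limma), and null 3 was barely above control 1. The brain lectican gene Bcan differed by 0.395, with its other probe set of opposite sign. Has2, the main hyaluronan synthase of the embryo, differed by -0.39 without overlap, and the hyaluronan receptor gene Cd44 by -0.44. At an unadjusted p under 0.05 were 2 higher and 1 lower, 18.8% of the list beside 17% of all genes.

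The partners of versican in the matrix gave the most negative single values. Tnc encodes tenascin C, a ligand of the versican lectin domain. It read 5.55, 5.57 and 7.32 in null arrays, against 7.655, 9.32 and 9.05 in control arrays, a difference of -2.53 ± 0.59 (SE, adjusted p = 0.165, limma). Both groups were widely spread, and null 3 and control 1 were the nearest pair between them. The elastic fibre gene Fbln5 differed by -1.43 ± 0.26 (adjusted p = 0.125, limma) and the versican-binding fibulin gene Fbln2 by -0.79 ± 0.19 (adjusted p = 0.166, limma), each with the same sign in 1 of 2 probe sets. The fibrillin gene Fbn2 differed by -0.36 with little spread. Of 10 measured, 7 were negative and 0 passed the adjusted threshold. At an unadjusted p under 0.05 were 4 (40%), all lower, beside 8.24% of all genes lower.

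Inhibitors, clearance receptors and activating enzymes had a median of -0.22, with 0 of 13 past the adjusted threshold. At an unadjusted p under 0.05 were 1 higher (7.69%) and 5 lower (38.5%), beside 8.73% and 8.24% of all genes. Timp3, the tissue inhibitor that blocks Adamts4 and Adamts5, read 7.885, 8.27 and 8.13 in null arrays, against 8.57, 8.39 and 8.73 in control arrays. It was lower in all 3 null arrays (-0.47 ± 0.14, SE, adjusted p = 0.206, limma), with the same sign in 4 of 4 probe sets. Timp2 differed by -0.35 ± 0.094 (adjusted p = 0.182, limma). B3glct, which extends the O-fucose on thrombospondin repeats needed for secretion of such proteases, differed by -0.29, and the proprotein convertase gene Pcsk7 by -0.36.

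Among 18 enzymes of chondroitin sulfate synthesis 12 were negative (median -0.090), with 0 past the adjusted threshold. At an unadjusted p under 0.05 were 2 higher and 3 lower, 27.8% of the list beside 17% of all genes. Chsy3, a chondroitin synthase, read 5.36, 5.22 and 5.28 in null arrays, against 5.845, 6.065 and 5.935 in control arrays. This was a difference of -0.66 ± 0.10 (SE, adjusted p = 0.0833, limma) with the null arrays close together. Dse, which turns chondroitin into dermatan sulfate, differed by -0.59, Csgalnact2 by -0.42 and the sulfotransferase gene Chst7 by 0.29. Of 15 other matrix proteases 14 were negative (median -0.247), 6 of them at an unadjusted p under 0.05 and 0 past the adjusted threshold. Over all genes 8013 of 18193 were negative and 8.24% were lower at an unadjusted p under 0.05. The mesenchyme markers, 15 of 16 lower, moved the same way, and their part in this list was not tested. Adam19 (-0.46), Adam9 (-0.36), Mmp23 (-0.43) and Adam12 (-0.58) had the smallest p in this list, each with no overlap between the groups.

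**Figure D4:**
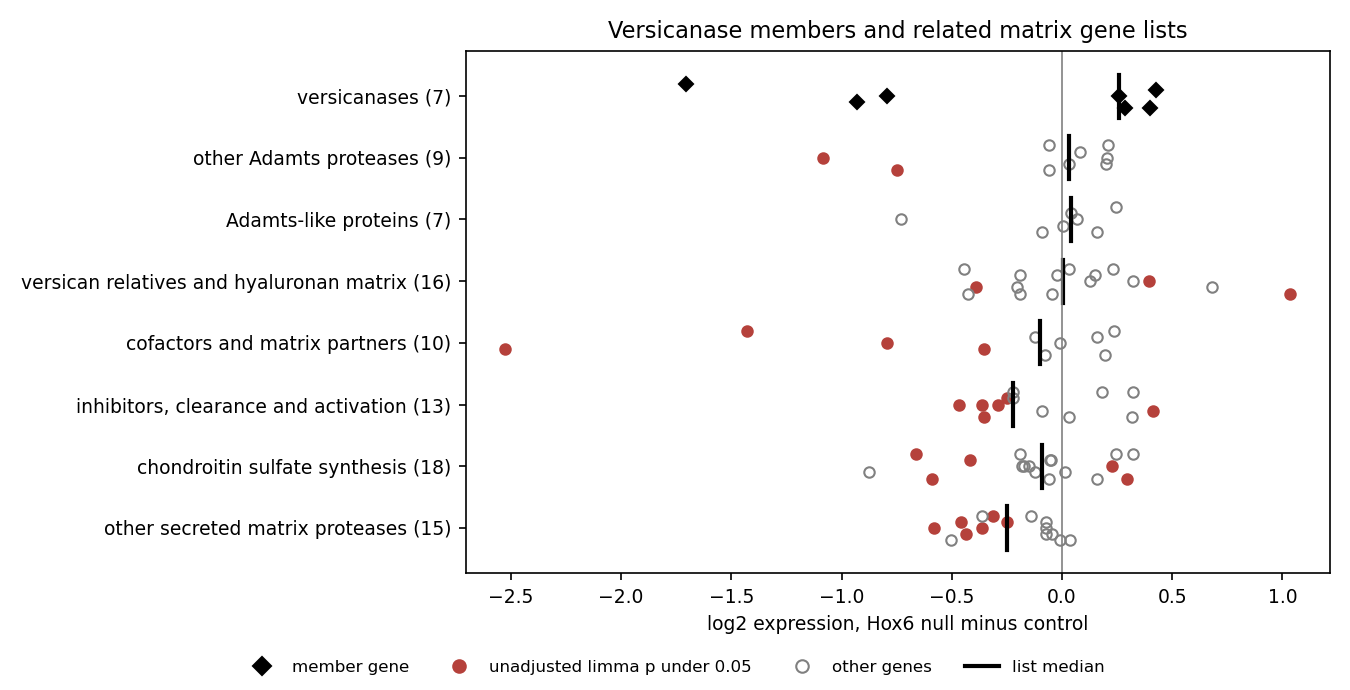
Difference in log2 expression, Hox6 null minus control (x axis), for the 7 member genes and for the genes of 7 related lists, with the number measured in brackets. Red points had an unadjusted limma p under 0.05, open points did not, black bars are list medians; Tnc at -2.53 and Acan at 1.04 are the ends of the range outside the member genes.

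Genes with an array profile like that of Adamts20 were sought by the root mean square difference between profiles over the 6 arrays, each taken relative to its own control mean. The search covered the 9097 genes with at least the median level, and so left out genes as dim as Adamts20, itself at the 27.9th percentile of genes. The nearest was Rps25, a ribosomal protein gene whose probe set may also read its copies, at 0.30, followed by Vldlr (0.35), a lipoprotein receptor gene, and Cav1 (0.37), of membrane caveolae. Next came Fabp4 (0.37), a fatty acid binding protein of fat and endothelial cells, Srgn (0.41), the proteoglycan of secretory granules, and Ly86 (0.42), a myeloid surface gene. Vegfc (0.43), Tek (0.45), Lyz2 (0.47) and Lor (0.47) completed the 10. Vegfc is a lymphatic growth factor, Tek an endothelial receptor, Lyz2 a macrophage enzyme and Lor a protein of the cornified skin.

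The nearest neighbour of Vcan was Mn1 at 0.11, a transcriptional regulator of craniofacial mesenchyme in the mouse. Dnm1 (0.12), Samd4 (0.15), Ntm (0.15) and Sh3kbp1 (0.16) came next. Mn1 read 7.355, 7.35 and 8.20 in null arrays against 8.28, 8.47 and 8.27 in control arrays, so that null 3 was again close to the controls. No gene was among the nearest of both Adamts20 and Vcan. Their differences between the genotypes, -1.70 and -0.79, were of unlike size, and the distances were not scaled for that. The lists and their distances are therefore not compared. The likeness rests on 6 arrays, includes the difference between the genotypes and says nothing about shared control.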

How the data were processed

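The authors deposited log2 expression values per probe set for 6 arrays; RMA, affy and limma are named in the submitters' processing notes, without versions. Per the labels' protocols, cDNA was amplified from 10 ng of total RNA and labelled with biotin. Amplification from little RNA can distort single arrays, and precision is limited by how few arrays there are. The 64 array controls were left out. Of the other probe sets, 34945 had 1 gene symbol, 932 several and 9160 none listed. The comparison was fitted with limma 3.58.1 in R 4.3.3, by probe set and by gene, and tested on simulated data. With 3 against 3 arrays an exact permutation test cannot give less than 0.1 and was not used. The members, lists and tests were chosen with earlier results of these data known. Named genes were all members, up to 4 genes per list by smallest p, the nearest profiles (10 to Adamts20, 5 to Vcan) and the targeted genes. Alternatives changed filter, probe set, normalization, variance prior, weights, blocking and covariate, and left out each array. Arrays shared at most 166 identical values, so none was counted as a duplicate.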

Additional observations from a re-analysis of the deposited data

How the results depend on the processing

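The Adamts20 difference kept its direction and moved by less than the replicate spread in all 15 alternatives that could give it. It lay at -1.86 to -1.58 when single arrays were left out. Changes of probe set, variance prior or replicate block could not move it in this design. Adamts20 was picked for its gap between these groups, so nothing is read from its kept direction. The filter on genes under the 40th percentile removed Adamts20 and Adamts4. Of the other member differences, Adamts15 alone turned its sign, to -0.319 with the epithelium covariate. The number of genes called, 13, was 36 with that filter, 1 with the probe set of largest SD, 1 with repeated quantile normalization, 8 with median centring, 74 with an intensity trend and robust prior, 155 with array weights, 33 (24 higher, 9 lower) with the epithelium covariate and 0 without moderation of the variance. With single arrays left out it was 0 to 1536, with 1536 (805 higher, 731 lower) without Hox6 null 3, 2 without control 1 and 0 without any other array. The number of probe sets called, 1, was 0 with repeated quantile normalization, 63 with the trend, 41 with array weights, 14 with the epithelium covariate, 0 without moderation and 0 to 1902 with single arrays left out. Pathway genes at an unadjusted p under 0.05 numbered 26, 14 with the epithelium covariate and 17 to 32 with single arrays left out. The causes of these changes were not tested. With the replicate block, 0 genes and 1 probe set were called; same-numbered arrays had correlations of deviations of 0.159, -0.038 and 0.100, null 2 did not correlate best with its own number, and the numbers were not taken to pair the samples. Dim readings limit Adamts20, Adamts4, the dimmest Adamts5 probe set and 4 of the Vcan probe sets.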
